A study of Homo sapiens with 8 samples.

Results

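The genes of cholesterol and lipid synthesis and efflux were examined in MOLM-13, an established human acute myeloid leukemia cell line that carries the KMT2A-AF9 fusion. With earlier results of these data known, they were chosen by name, as 33 of the 26475 gene symbols in the table. No rule on their measured values was used to choose them. They comprise 7 genes of the mevalonate arm, 11 of the squalene and sterol arm, 6 of sterol regulatory element binding protein (SREBP) control and sterol transport, 3 of fatty acid synthesis, and 6 of the liver X receptors (LXRs) and their targets. Of the 33, 32 had enough counts to be tested and ABCG1 did not.

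Bulk RNA was sequenced from MOLM-13 with a wild-type genotype by its label, treated with VTP50469+WM119 (the combination), VTP50469, WM119 or DMSO, the solvent that served as the control. Each of the 4 groups had 2 libraries, 8 in all. VTP50469 keeps Menin from binding KMT2A, and WM119, written WM1119 in the study and in the following text, inhibits the histone acetyltransferase KAT6A. The sources used here give no dose or duration and do not say if replicate libraries stem from separate cultures, so the p-values measure the spread between these libraries, which may be technical. The model is a single cell line in culture, and in bulk RNA a change of level per cell and a change in the make-up of the culture cannot be told apart.

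Cells build cholesterol from acetyl-CoA through mevalonate, squalene and lanosterol. When sterol in the endoplasmic reticulum is low, SCAP escorts the SREBP precursors (encoded by SREBF1 and SREBF2) to the Golgi, where they are cleaved into active transcription factors. SREBP-2 mainly drives sterol synthesis and SREBP-1c mainly fatty acid synthesis. INSIG1 and INSIG2 hold SCAP back when sterol is plentiful, and INSIG1 is itself an SREBP target. Oxysterols act the other way through the LXRs, which turn on the efflux pumps ABCA1 and ABCG1, the lipoprotein receptor degrader MYLIP, and SREBF1. In myeloid cells these genes are best known from macrophages, which must export the cholesterol they take up.

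The promoters of the genes on which the results turn are shown first, because SREBP and LXR act at short DNA elements there. RefSeq windows (GRCh38.p14, 250 bases before to 50 after a start site) were found for 28 of the 33 genes, as 39 windows. Upstream bases outside the annotated gene are printed 5′ to 3′ on the gene's strand, and capitals mark any match to the sterol element TCACNCCAC, to the NF-Y element CCAAT, or to an LXR-type repeat of NGGTNA, 4 bases apart, each searched on either strand of the 250 bases before the start. Matches on the opposite strand read ATTGG for NF-Y.
SREBF2 (chr22:41832855-41833104, plus strand): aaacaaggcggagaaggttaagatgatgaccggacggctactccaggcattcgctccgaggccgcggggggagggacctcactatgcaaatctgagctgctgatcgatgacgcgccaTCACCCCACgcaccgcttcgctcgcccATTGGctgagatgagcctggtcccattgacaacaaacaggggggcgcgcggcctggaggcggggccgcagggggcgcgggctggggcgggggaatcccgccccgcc
INSIG1 (chr7:155297628-155297775, plus strand): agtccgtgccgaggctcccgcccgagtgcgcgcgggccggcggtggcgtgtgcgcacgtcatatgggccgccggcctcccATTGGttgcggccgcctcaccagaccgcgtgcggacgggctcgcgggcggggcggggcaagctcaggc
LSS (chr21:46228825-46229024, minus strand): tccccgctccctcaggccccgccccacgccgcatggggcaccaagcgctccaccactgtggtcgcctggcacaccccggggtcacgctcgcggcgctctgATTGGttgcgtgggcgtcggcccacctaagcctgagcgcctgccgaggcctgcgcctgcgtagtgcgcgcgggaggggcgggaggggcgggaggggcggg
SCD (chr10:100346983-100347232, plus strand): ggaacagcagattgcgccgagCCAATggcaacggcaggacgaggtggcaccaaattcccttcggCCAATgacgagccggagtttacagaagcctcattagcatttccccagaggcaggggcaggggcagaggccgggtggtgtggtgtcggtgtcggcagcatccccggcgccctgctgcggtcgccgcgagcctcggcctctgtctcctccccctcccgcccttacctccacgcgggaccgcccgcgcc
ABCA1 (chr9:104928156-104928405, minus strand): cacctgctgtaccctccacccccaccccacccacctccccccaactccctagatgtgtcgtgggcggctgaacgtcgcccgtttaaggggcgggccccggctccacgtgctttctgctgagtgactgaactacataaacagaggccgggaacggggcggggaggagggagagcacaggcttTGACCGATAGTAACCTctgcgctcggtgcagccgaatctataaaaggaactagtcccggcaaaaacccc
The sterol element was matched in 1 of the 39 windows, that of SREBF2, against 0.883% of 35116 RefSeq windows of the same length. CCAAT was matched in 24 of the 39 windows, against 32.0% of all windows. The LXR-type repeat was matched in 2 of the 39, those of ABCA1 and HMGCS1, against 0.530% of all windows. These matches are descriptions of letters and not of bound sites.

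The library totals ran between 18092906 and 23634468 counts. All 8 myeloid markers had counts in every group, while HBB, HBA1, PF4, PPBP, CD3E, EPCAM and COL1A2 were at 0. The T and NK markers summed to 33.2 to 84.3 CPM in the combination against 22.1 to 25.1 CPM in DMSO. NKG7 made up most, with 30.3 and 82.1 CPM in the combination against 20.6 and 19.2 CPM in DMSO (edgeR adjusted p = 0.0797). CD2 was low but higher in the combination, at 0.806 and 0.868 CPM against 0.0541 and 0 CPM in DMSO (edgeR adjusted p = 0.0448). CD3D was at or below 4.49 CPM in all libraries. The B markers reached at most 3.16 CPM and the epithelial and stromal markers 4.96 CPM in sum, both in the combination, and the part of these genes in the results was not tested. The combination libraries stood apart from each other: on the log2(CPM + 1) scale 14.9% of the 12401 genes tested were over 2-fold apart between them, against 0.218% to 0.669% in the other groups. Among the 32 genes tested here, 2 were over 2-fold apart on that scale in the combination and 0 in any other group. In CPM, 3 were over 2-fold apart in the combination (MVD, STARD4 and ACACA) and 0 in any other group. Combination replicate 2 had 12972 genes with a count, against 14142 to 14544 in the other libraries. Results of the combination are also given without that library where its absence moved a call.

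In the combination, 17 of the 32 genes lay above DMSO and 15 below it on the log2 scale. INSIG1, the sterol-sensing brake on SREBP, fell 1.67-fold against DMSO, and LSS, the lanosterol synthase, fell 1.43-fold. These were the 2 genes of 32 that fell (edgeR quasi-likelihood F test, Benjamini-Hochberg adjusted p under 0.05 over all genes tested), and 0 rose. Over all genes tested, 3.44% fell and 5.85% rose, so 2 of 32 is near the background. At an unadjusted p under 0.05, 8 were lower and 4 higher, against 13.4% and 16.9% of all genes. DESeq2 called 6 lower (ACACA, FASN, INSIG1, LSS, SCD and SREBF1) and 1 higher (EBP), against 7.58% and 10.2% of all genes. The median log2 change of the 32 was 0.03, against 0.01 over all genes tested.

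The count depended on the combination library left out. Without combination replicate 2, 5 fell (FASN, INSIG1, LSS, SCD and SREBF1) and 0 rose, against 5.60% and 8.90% of all genes. Without combination replicate 1, 12 fell and 8 rose, against 31.9% and 28.9% of all genes. All 5 genes named were among those that fell in both fits. Without replicate 2 and without replicate 1, the log2 changes were -0.58 and -0.92 for INSIG1 and -0.54 and -0.50 for LSS. They were -0.44 and -0.45 for SREBF1, -0.59 and -1.2 for FASN, and -0.65 and -1.63 for SCD.

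Neither inhibitor alone changed a gene of the set past the threshold with all 8 libraries. With VTP50469, 0 of the 32 were called against DMSO by edgeR and 0 by DESeq2, where 0.169% of all genes were called by edgeR and 1.54% by DESeq2. At an unadjusted p under 0.05, which 6.75% of all genes met, ABCA1 was higher and INSIG1 and CYP51A1 were lower. With WM1119, 0 of the 32 were called by edgeR and 0 by DESeq2, where 0.0% of all genes were called by edgeR and 0.62% by DESeq2. LSS was the 1 gene at an unadjusted p under 0.05, which 4.94% of all genes met. The call in the combination and its absence with an inhibitor alone do not show a difference between them. That difference was tested directly, and 0 of the 32 were called against VTP50469 (background 0.395%), 0 against WM1119 (background 1.43%) and 0 for the interaction, the departure from the sum of the separate log2 changes (background 0.0%). At an unadjusted p under 0.05 these tests gave 5, 4 and 0 genes, against 17.9%, 16.7% and 2.20% of all genes. DESeq2 called 0, 1 (ABCA1) and 0, against 5.30%, 5.53% and 0.0305% of all genes.

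**Figure D1:**
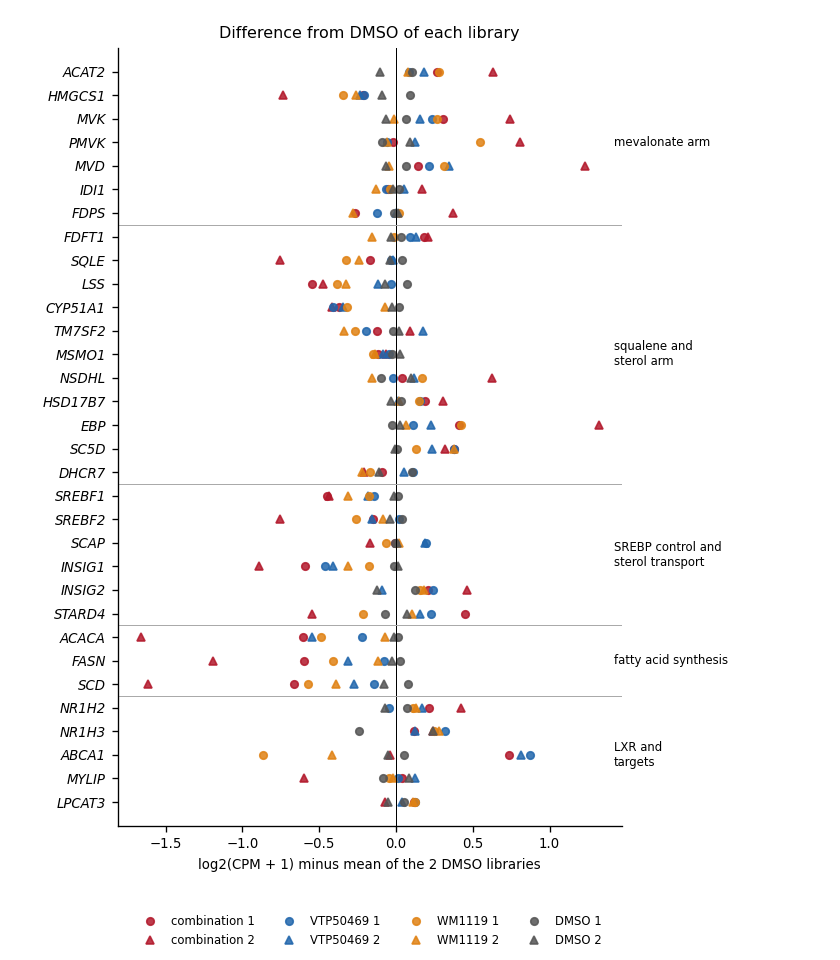
Difference of log2(CPM + 1) from the mean of the 2 DMSO libraries (x axis) for the 32 genes tested (y axis, grouped by arm), with circles for replicate 1 and triangles for replicate 2. The fatty acid genes ACACA, FASN and SCD lay below both DMSO libraries in all 6 treated libraries, as did 11.0% of all genes tested. Combination replicate 2 reached farthest from 0 on either side.

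Values per library are given in CPM (counts scaled to library size with TMM factors), replicate 1 before replicate 2. Among the control genes, INSIG1 had 83.8 and 67.6 CPM in the combination, 91.6 and 95.1 CPM with VTP50469, and 112 and 102 CPM with WM1119, against 126 and 128 CPM in DMSO. All treated libraries lay below both DMSO libraries, with the combination lowest. The log2 change was -0.74 ± 0.15 (SE) in the combination (adjusted p = 0.0281). It was -0.44 ± 0.14 with VTP50469 (adjusted p = 0.494) and -0.25 ± 0.14 with WM1119 (adjusted p = 1.0).

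Without combination replicate 2, the change of INSIG1 was -0.58 (adjusted p = 0.0109), and without combination replicate 1 it was -0.92 (adjusted p = 0.000395). The call was lost (adjusted p = 0.236) when only the combination and DMSO libraries were fitted, and when any DMSO, VTP50469 or WM1119 library was left out (adjusted p between 0.0722 and 0.211). With VTP50469 against DMSO, INSIG1 was called without either combination library (adjusted p = 0.0358 and 0.0372) and in a fit of these groups alone (adjusted p = 0.00195), at log2 changes between -0.44 and -0.43. The interaction of INSIG1 was -0.06 ± 0.20 (adjusted p = 0.956).

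SREBF1, which encodes SREBP-1, had 102 and 103 CPM in the combination, 126 and 123 CPM with VTP50469, and 123 and 112 CPM with WM1119, against 140 and 138 CPM in DMSO. Its combination libraries were almost equal and lay below every other library. The log2 change of -0.44 ± 0.12 in the combination did not pass the threshold (adjusted p = 0.0626), while DESeq2 called it (adjusted p = 0.0106), as did edgeR without combination replicate 2 (adjusted p = 0.031). With the length offset it was at -0.16 (adjusted p = 0.515).

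SREBF2, which encodes SREBP-2 and carries the sterol element printed above, had 232 and 153 CPM in the combination, against 265 and 251 CPM in DMSO. Only combination replicate 2 lay far below DMSO, and the log2 change was -0.42 ± 0.21 (adjusted p = 0.211). SCAP, the escort, had 74.9 and 66.6 CPM in the combination, 86.2 and 85.6 CPM with VTP50469, and 71.8 and 75.9 CPM with WM1119, against 74.8 and 75.3 CPM in DMSO. INSIG2 was low in every library, between 5.93 and 9.42 CPM. STARD4, a carrier of sterol between membranes, had 39.0 and 19.1 CPM in the combination, on either side of the 26.9 and 29.8 CPM in DMSO.

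**Figure D2:**
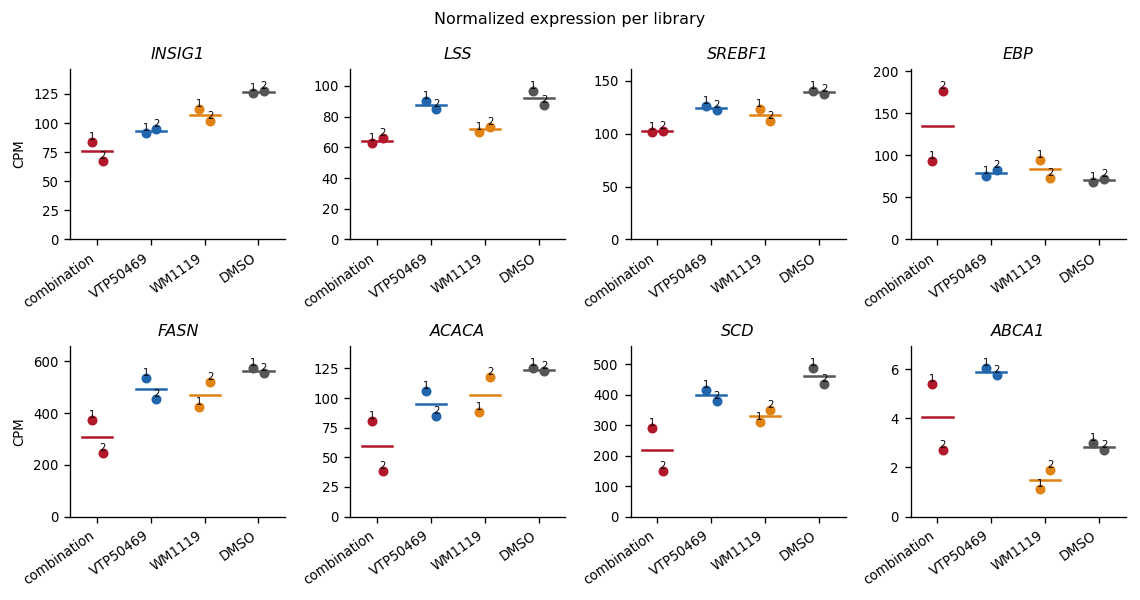
CPM (y axis, from 0) of 8 genes in each library, with points numbered by replicate and a bar at the mean of each group of 2 libraries. INSIG1 and SREBF1 were lowest in the combination, FASN, ACACA and SCD were lower in combination replicate 2 than in replicate 1, and ABCA1 was highest with VTP50469 and lowest with WM1119.

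Fatty acid synthesis had the lowest median log2 change of any arm in the combination, at -1.05. FASN, the fatty acid synthase, had 372 and 247 CPM in the combination, 535 and 453 CPM with VTP50469, and 424 and 519 CPM with WM1119, against 574 and 554 CPM in DMSO. SCD, the stearoyl-CoA desaturase that makes monounsaturated fatty acids, had 291 and 150 CPM in the combination, 417 and 381 CPM with VTP50469, and 310 and 351 CPM with WM1119, against 487 and 437 CPM in DMSO. ACACA, the acetyl-CoA carboxylase that commits carbon to fatty acids, had 80.9 and 38.4 CPM in the combination, 106 and 84.6 CPM with VTP50469, and 87.9 and 118 CPM with WM1119, against 125 and 123 CPM in DMSO. In all 3 genes the 6 treated libraries lay below both DMSO libraries, as in 11.0% of all genes tested.

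None of these 3 genes passed the threshold in the combination. FASN was at -0.87 ± 0.22 on the log2 scale (adjusted p = 0.0566), SCD at -1.07 ± 0.29 (adjusted p = 0.066) and ACACA at -1.05 ± 0.34 (adjusted p = 0.101). By DESeq2 all 3 were called, with adjusted p of 0.00569 for FASN, 0.00603 for SCD and 0.0226 for ACACA. Without combination replicate 2 the log2 changes were smaller, and FASN at -0.59 (adjusted p = 0.039) and SCD at -0.65 (adjusted p = 0.0126) were called while ACACA at -0.60 was not (adjusted p = 0.081).

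The fatty acid genes have long transcripts, and the libraries differed with transcript length. The canonical transcripts are 8464 bases for FASN, 10013 for ACACA and 5245 for SCD. In combination replicate 2, all 9 genes of the set under 2000 bases lay above the DMSO mean (median 0.62 on the log2(CPM + 1) scale), and 10 of the 11 over 4000 bases lay below it (median -0.55). The Spearman correlation of the difference with length over the 32 genes was -0.70 in combination replicate 2, -0.74 in WM1119 replicate 1, -0.29 in combination replicate 1 and between -0.36 and -0.06 in the remaining treated libraries. Over all 11416 tested genes with a known length, that correlation was -0.56 in combination replicate 2, -0.52 in WM1119 replicate 1 and -0.14 in combination replicate 1. In the remaining treated libraries it was between -0.29 and 0.09 over these genes. The DMSO libraries had 0.27 and -0.27 over the 32 genes. The genes share libraries and are not independent.

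When an offset for transcript length was fitted, 4 genes fell (ACACA, FASN, INSIG1 and SCD) and 3 rose (ABCA1, EBP and SC5D), against 9.52% and 10.6% of all genes. FASN was then at -0.40 (adjusted p = 0.0267), ACACA at -0.59 (adjusted p = 0.0132) and SCD at -0.83 (adjusted p = 0.00882). INSIG1 was at -0.79 (adjusted p = 0.00445), close to its change without the offset.

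**Figure D3:**
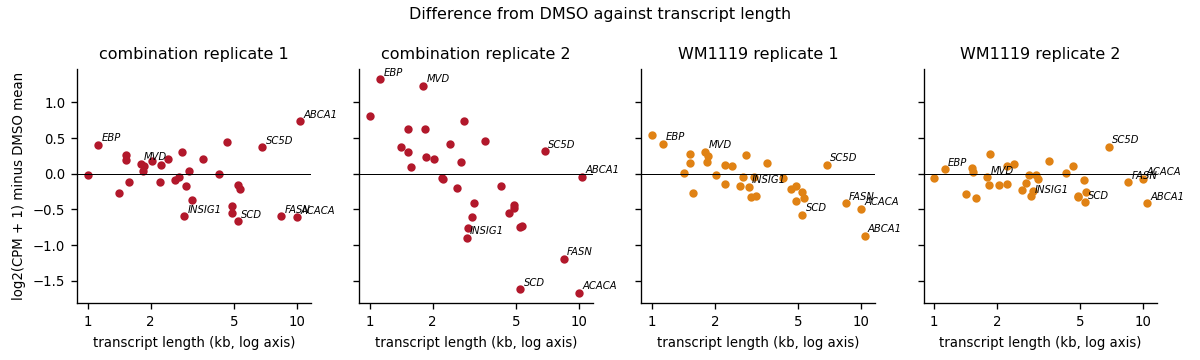
Difference of log2(CPM + 1) from the DMSO mean (y axis) against canonical transcript length (x axis, log scale, kb) for the 32 genes in the combination and WM1119 libraries. Of the 9 genes under 2000 bases, such as EBP, 9 lay above 0 in combination replicate 2 and 8 in WM1119 replicate 1. Of the 11 over 4000 bases, such as ACACA, 10 lay below 0 in each of these libraries, and SC5D lay above 0 in both.

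In the squalene and sterol arm, LSS, which closes squalene epoxide into lanosterol, had 62.7 and 65.9 CPM in the combination, 89.9 and 84.7 CPM with VTP50469, and 70.1 and 73.3 CPM with WM1119, against 96.7 and 87.5 CPM in DMSO. The combination and WM1119 libraries lay below both DMSO libraries, and the VTP50469 libraries overlapped with DMSO. The log2 change in the combination was -0.52 ± 0.13 (adjusted p = 0.0493), close to the threshold. With WM1119 it was -0.36 ± 0.12 (adjusted p = 0.873). The call was lost with the length offset, where LSS, with a transcript of 4886 bases, was at -0.23 (adjusted p = 0.352).

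CYP51A1, the lanosterol demethylase, had 26.2 and 25.4 CPM in the combination, 25.5 and 26.7 CPM with VTP50469, and 27.3 and 32.4 CPM with WM1119, against 34.7 and 33.6 CPM in DMSO. Its log2 change in the combination was -0.41 ± 0.14 (adjusted p = 0.118), with all treated libraries below DMSO. EBP, the sterol isomerase, lay on the other side of DMSO, with 93.2 and 176 CPM in the combination, 75.6 and 82.2 CPM with VTP50469, and 94.2 and 73.5 CPM with WM1119, against 68.7 and 71.3 CPM in DMSO. EBP was at 0.94 ± 0.29 (adjusted p = 0.0909), and without combination replicate 2 at 0.43 (adjusted p = 0.102).

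Of the other sterol arm genes, SC5D, the lathosterol desaturase, had 30.8 and 29.6 CPM in the combination, against 23.7 and 23.4 CPM in DMSO (log2 change 0.36 ± 0.15, adjusted p = 0.158). It lay above both DMSO libraries in all 6 treated libraries. SQLE, the squalene epoxidase, had 106 and 70.5 CPM in the combination, against 123 and 117 CPM in DMSO (adjusted p = 0.184). FDFT1 (squalene synthase), TM7SF2, MSMO1, NSDHL, HSD17B7 and DHCR7, which carry out other steps on the way to cholesterol, had log2 changes between -0.15 and 0.37 in the combination, none of them called.

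In the mevalonate arm, 6 of 7 genes were above 0 on the log2 scale in the combination, with a median of 0.46 and no call. Without combination replicate 2, 3 were above 0 and 4 below it, with a median of -0.009. With the length offset, 3 were above 0 and 4 below it, with a median of -0.014. ACAT2, which joins the first acetyl-CoA units, had 136 and 175 CPM in the combination, 119 and 128 CPM with VTP50469, and 137 and 119 CPM with WM1119, against 121 and 105 CPM in DMSO (log2 change 0.46 ± 0.17, adjusted p = 0.13). MVK, the mevalonate kinase, had 16.5 and 22.7 CPM in the combination, 15.7 and 14.8 CPM with VTP50469, and 16.1 and 13.0 CPM with WM1119, against 13.8 and 12.6 CPM in DMSO (0.57 ± 0.20, adjusted p = 0.123). Both genes were higher in either combination library than in either DMSO library, with replicate 2 the higher.

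MVD, which forms isopentenyl diphosphate, had the widest gap of the set between the combination libraries, at 27.1 and 58.9 CPM, against 25.7 and 23.4 CPM in DMSO (0.81 ± 0.34, adjusted p = 0.169). Without combination replicate 2 its log2 change was 0.16 (adjusted p = 0.588). HMGCS1, which makes HMG-CoA, was the 1 gene of the arm below 0 with all 8 libraries. It had 133 and 92.4 CPM in the combination, 133 and 131 CPM with VTP50469, and 121 and 129 CPM with WM1119, against 164 and 145 CPM in DMSO (-0.46 ± 0.19, adjusted p = 0.154). PMVK, IDI1 and FDPS, which carry mevalonate phosphates on to farnesyl diphosphate, had log2 changes between 0.06 and 0.46. Without combination replicate 2, PMVK was at -0.009, IDI1 at -0.04 and FDPS at -0.26.

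**Figure D4:**
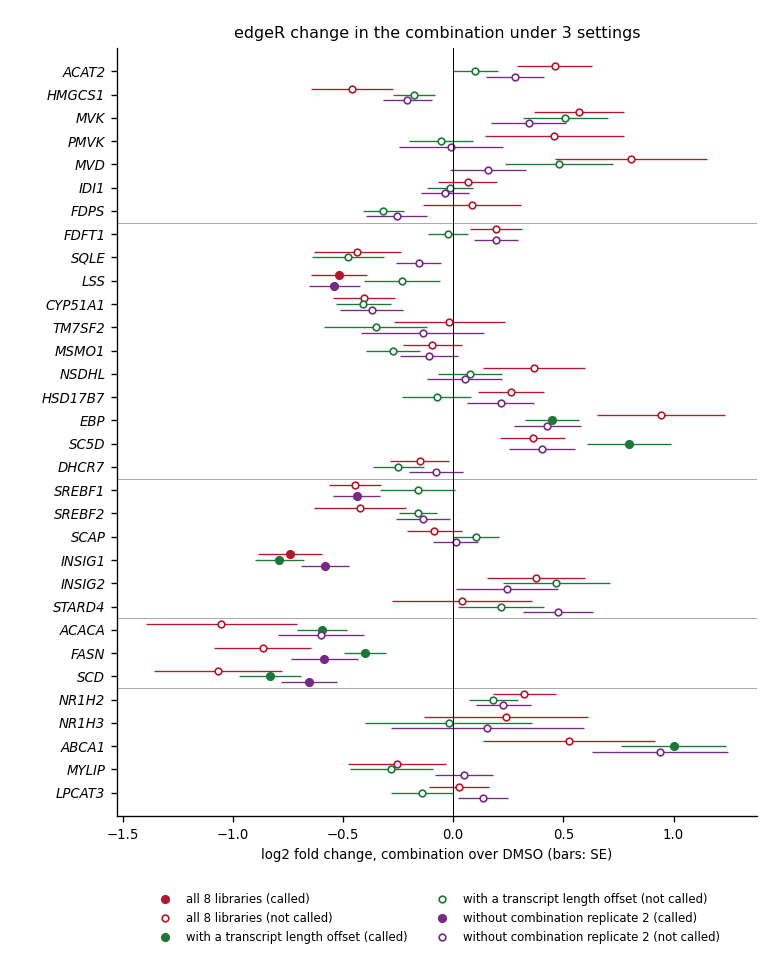
edgeR log2 fold change of the combination over DMSO (x axis, bars are SE) for the 32 genes tested, with all 8 libraries, with a transcript length offset, and without combination replicate 2, where filled points are called at an adjusted p under 0.05. INSIG1 lay between -0.79 and -0.58 and was called in all 3 fits, while LSS was called in 2 of them.

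Read across treatments, 8 genes lay below both DMSO libraries in all 6 treated libraries: HMGCS1, CYP51A1, MSMO1, SREBF1, INSIG1, ACACA, FASN and SCD. This was 8 of 32, against 11.0% of all genes tested. EBP and SC5D lay above both DMSO libraries in all 6, which was 2 of 32 against 11.4%. The 3 comparisons share the DMSO libraries, so they are not separate evidence. For each treatment, without overlap with DMSO, 9 genes were higher and 11 lower in the combination (background 29.0% and 30.9%), 8 and 8 with VTP50469 (27.3% and 27.6%), and 6 and 15 with WM1119 (24.1% and 20.9%).

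On the efflux side, ABCA1, which exports cholesterol and phospholipid to apolipoprotein A-I, was the gene on which the inhibitors were farthest apart. It had 5.39 and 2.73 CPM in the combination, 6.03 and 5.75 CPM with VTP50469, and 1.11 and 1.88 CPM with WM1119, against 2.98 and 2.70 CPM in DMSO. The VTP50469 libraries lay above DMSO and the WM1119 libraries below it. Combination replicate 1 was near the VTP50469 libraries and combination replicate 2 within the range of DMSO.

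With all 8 libraries and no length offset, edgeR did not call ABCA1 in any comparison. The log2 change was 0.53 ± 0.39 in the combination (adjusted p = 0.367), 1.05 ± 0.39 with VTP50469 (unadjusted p = 0.0308, adjusted p = 0.631) and -0.93 ± 0.41 with WM1119 (unadjusted p = 0.0581, adjusted p = 1.0). The combination against WM1119 gave 1.46 ± 0.41 (adjusted p = 0.156), which DESeq2 called (adjusted p = 0.0409), as did the fit with a length offset (adjusted p = 0.00938) and the fit without combination replicate 2 (1.88, adjusted p = 0.0185). VTP50469 against WM1119, a comparison added after the values of ABCA1 were seen, gave 1.98 ± 0.41 (adjusted p = 0.232), where 0 of the 32 genes and 0.0323% of all genes were called. ABCA1 was the 1 gene of the 32 at an unadjusted p under 0.05 in this comparison, which 5.39% of all genes met. It was also the 1 gene of the 32 called by DESeq2 (adjusted p = 0.0042), which called 1.12% of all genes. The transcript of ABCA1 is 10408 bases. With the length offset the difference between VTP50469 and WM1119 was 1.98 (adjusted p = 0.0296), as large as without it.

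The second sterol pump, ABCG1, had 0 counts in 7 libraries and 8 counts in combination replicate 2. With 3 counts as the floor for a group, 0 counts in DMSO allows a level of up to 0.0776 CPM for counting error alone. The 0.496 CPM of combination replicate 2 was above this, but combination replicate 1 had 0 counts, so any difference rests on 1 library. NR1H2, the widely expressed LXR beta, had 93.6 and 108 CPM in the combination, against 84.7 and 76.7 CPM in DMSO (0.32 ± 0.14, adjusted p = 0.181). NR1H3, the LXR alpha of macrophages and liver, stayed between 1.14 and 2.16 CPM in all libraries. MYLIP, a ubiquitin ligase for lipoprotein receptors, and LPCAT3, which puts polyunsaturated chains into phospholipids, had log2 changes of -0.25 and 0.03 in the combination, neither called.

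Further genes of these pathways were counted from lists. Of 12 other genes linked to LXR or to sterol handling, 3 rose and 0 fell in the combination, where 5.85% of all genes rose and 3.44% fell. NPC2, which hands cholesterol out of the lysosome, had 75.6 and 151 CPM in the combination, against 31.2 and 32.7 CPM in DMSO (log2 change 1.83 ± 0.32, adjusted p = 0.0198). SMPDL3A, an LXR target of human macrophages, had 7.59 and 9.17 CPM in the combination, against 1.95 and 3.08 CPM in DMSO (1.73 ± 0.28, adjusted p = 0.0167). PLTP, the phospholipid transfer protein, had 5.30 and 7.56 CPM in the combination, against 1.95 and 1.14 CPM in DMSO (2.06 ± 0.44, adjusted p = 0.0363). For each of the 3, the combination libraries lay above all 6 other libraries.

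Of 16 other SREBP targets and regulators, 2 rose and 0 fell in the combination, where 5.85% of all genes rose and 3.44% fell. Both lists were chosen with earlier results of these data known. ACSS2, which makes acetyl-CoA from acetate, had 28.8 and 34.0 CPM in the combination, against 18.8 and 17.8 CPM in DMSO (0.78 ± 0.15, adjusted p = 0.0281). C14orf1, now named ERG28, a scaffold of sterol enzymes, had 41.9 and 59.4 CPM in the combination, against 25.9 and 22.8 CPM in DMSO (1.06 ± 0.20, adjusted p = 0.0241). Neither inhibitor alone gave a call in either list by edgeR with all 8 libraries. At an unadjusted p under 0.05 these lists held 0 genes with VTP50469 and 0 with WM1119, against 6.75% and 4.94% of all genes. Without combination replicate 2, LIPA at 0.88 and SCARB1 at -0.53 were added to the calls among the 12. ELOVL6 at 0.89 was added to those among the 16 in the same fit. All 5 genes named with their values kept their call in that fit, at log2 changes between 0.67 and 1.80. Leaving out any 1 DMSO, VTP50469 or WM1119 library ended the calls of PLTP, ACSS2 and C14orf1 (adjusted p up to 0.244), while SMPDL3A kept its call without either WM1119 library and NPC2 without WM1119 replicate 1.

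Some monocyte maturation genes were higher in the same libraries. Of a list of 7, LYZ, ITGAM and CSF1R rose in the combination, where 5.85% of all genes rose. CD14, FCGR1A, CD68 and CD36 were not called (adjusted p between 0.0576 and 0.152). LYZ, which encodes lysozyme, had 6370 and 8430 CPM in the combination, 1780 and 2230 CPM with VTP50469, and 1560 and 1500 CPM with WM1119, against 541 and 598 CPM in DMSO. It was also called with VTP50469 (adjusted p = 0.0284), and 0 of the 7 were called with WM1119. The whole list summed to 6520 to 8650 CPM in the combination, 1880 to 2330 CPM with VTP50469 and 1590 to 1660 CPM with WM1119, against 621 to 678 CPM in DMSO. Without LYZ, the other 6 summed to 148 to 215 CPM in the combination, at least 99.9 CPM with VTP50469 and 91.5 to 105 CPM with WM1119, against 79.6 to 80.5 CPM in DMSO. Their part in the results was not tested.

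Reads of several genes may be shared with neighbours. ACAT2, MVK, IDI1, FDPS, CYP51A1, TM7SF2, SREBF1, STARD4, NR1H2, NR1H3 and LPCAT3 overlap an exon of another gene, and the strand setting of the counting is not given. ACAT2 had values that were not whole in all 8 libraries, so its level is uncertain.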

How the data were processed

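Bulk RNA sequencing of 8 MOLM-13 libraries was examined. The authors mapped reads to hg38 with STAR 2.5.1b and deposited expected counts per gene symbol, without normalization. No source used here gives the counting tool, its strand setting or the annotation. Of the positive values, 11.4% to 16.6% per library were not whole, and all were rounded. Groups were taken from the sample labels.

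In R 4.3.3, edgeR 4.0.16 fitted the 4 groups together by quasi-likelihood, after filterByExpr and TMM scaling, and tested contrasts with its F test. The filter kept 12401 genes, with a common dispersion of 0.0457 and 4 residual and 2.88 prior degrees of freedom. Benjamini-Hochberg adjustment ran over all of them, and a gene is called at an adjusted p under 0.05. SE is the absolute log2 change divided by the square root of F. The scripts were tested on simulated data. Deviations of libraries with equal replicate numbers correlated negatively between WM1119 and each other group, and positively among the other groups. The numbers as given were therefore not used for pairing, and the fit was unpaired.

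Alternatives were DESeq2 1.42.0, RLE factors, library size only, no filter, a minimum of 10 counts per library, a replicate block, the groups compared alone, leaving out each library in turn, and a loess offset (span 0.4) on transcript length from GENCODE, which 92.1% of tested genes have. Gene positions follow GENCODE, and promoters are from RefSeq (GRCh38.p14). The crossed block and the comparison of VTP50469 with WM1119 were chosen after seeing the data. The genes and lists were chosen with earlier results of these data known. All 33 genes are named. Values in every library are given in full for those called in a comparison and the 8 others of lowest p in the combination. ABCA1, SREBF2, SCAP, HMGCS1 and a few more were added after their values were seen. Of the other pathway genes, those called are named.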

Additional observations from a re-analysis of the deposited data

How the results depend on the processing

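In the combination against DMSO, where 2 genes were called with all 8 libraries, DESeq2 called 7, the length offset 7, RLE factors 1 (INSIG1), the replicate block 0, and a fit of the groups compared alone 0. Over all genes the same settings gave 2288, 2496, 1157, 528 and 0 calls, against 1152. No gene of the set was called wherever a DMSO, VTP50469 or WM1119 library was left out. More were called when either combination library was left out. Leaving out a library of any group leaves fewer residual degrees of freedom. VTP50469 against DMSO had 0 calls, 4 with only the groups compared (ABCA1, ACACA, CYP51A1 and INSIG1, where 11.1% of all genes were called), and 0 to 1 on leaving out each library. The combination against WM1119 had 0 calls, 1 with DESeq2 and 1 with the length offset (ABCA1), and 0 to 16 on leaving out each library. That range was 0 to 21 against VTP50469 and 0 to 10 for the interaction, with the upper value of each without combination replicate 1, where 54.2% of all genes were called against WM1119, 56.6% against VTP50469 and 30.9% for the interaction. A group left with a single library is assumed to vary like the others. Crossing the WM1119 numbers in the block, chosen after seeing the data, gave 7 calls in the combination against DMSO and 1906 over all genes.

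The correlations of same-numbered deviations ran between -0.66 and 0.35. They were negative for each pair of groups with WM1119 (-0.66 to -0.16) and positive for each other pair (0.07 to 0.35). The numbers as given therefore did not pair the libraries of all groups, but deviations shared between groups were not excluded. With the replicate block, INSIG1 was at an adjusted p of 0.061 in the combination, and ABCA1 was not called in any comparison. ABCA1 turned its sign without combination replicate 1, to -0.0697 in the combination against DMSO (range -0.07 to 0.94 over the libraries left out) and to -0.19 for the interaction (range -0.19 to 0.84). In the combination against DMSO, 20 of the 32 genes kept their sign in all 17 alternatives and 12 did not. INSIG1 stayed between -0.92 and -0.58 in these alternatives and was called in 9 of them. LSS, FASN and SCD were each called in 6.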

Other observations

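Some further lipid genes, chosen after their values were seen, were not called by edgeR in the combination with all 8 libraries. ACLY, which makes the cytosolic acetyl-CoA for both sterol and fatty acid synthesis, had 374 and 237 CPM in the combination, 473 and 422 CPM with VTP50469, and 395 and 445 CPM with WM1119, against 515 and 484 CPM in DMSO (log2 change -0.71 ± 0.22, edgeR adjusted p = 0.0909, DESeq2 adjusted p = 0.0291). It lay below both DMSO libraries in all 6 treated libraries, as did the 3 fatty acid genes and 11.0% of all genes tested. LIPA, the lysosomal acid lipase that frees cholesterol from its esters, had 103 and 77.4 CPM in the combination, 65.5 and 67.3 CPM with VTP50469, and 57.5 and 66.3 CPM with WM1119, against 55.0 and 57.8 CPM in DMSO (0.68 ± 0.17, edgeR adjusted p = 0.0556, DESeq2 adjusted p = 0.00935). LPIN1, a phosphatidate phosphatase, had 33.4 and 7.25 CPM in the combination libraries, against 45.1 and 44.3 CPM in DMSO (edgeR adjusted p = 0.23, DESeq2 adjusted p = 0.135), so its level differed more between the combination libraries than between combination replicate 1 and DMSO.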
